A study of Mus musculus with 6 samples.

Results

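The genes of iron recycling and storage were followed in RNA sequencing libraries of mouse bone marrow after deletion of Hes1, a repressor that acts below Notch receptors, and without it. The 8 genes are Hmox1, Blvra, Blvrb, Slc40a1, Slc11a1, Fth1, Ftl1 and Tfrc. They were chosen by symbol from the deposited count table, which lists them beside 26980 other genes. All 8 were found there and passed the filter on low counts. Libraries from Hes1 KO mice (n = 3) were set against libraries from WT mice (n = 3), all labelled as bone marrow mesenchymal stromal cells on the C57BL/6 background. Hes1 KO was made with a floxed Hes1 allele and the Prx1Cre transgene, whose Prx1 promoter is active in early limb bud mesenchyme and part of the craniofacial mesenchyme. The protocols speak of heterozygous Hes1fl/+ animals for every sample, so how many alleles were deleted is not stated. The age of the mice, any pooling of animals and whether WT mice carried a floxed allele or Cre are not stated in the labels either. The labels do not say that the libraries of a group came from separate mice or cultures, so the p-values reflect library-to-library spread alone, which may be technical.

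Iron recycling begins when macrophages take up old red cells. Haem oxygenase opens the haem ring and frees iron, and biliverdin reductase turns the green product into bilirubin. The freed iron is stored in ferritin, a shell of heavy and light subunits, or leaves the cell through ferroportin, while most cells import iron through the transferrin receptor. Dividing red cell precursors carry the most transferrin receptor in the marrow. Iron regulatory proteins bind hairpins called iron-responsive elements when iron is scarce. In the 5′ untranslated region the bound hairpin holds back translation, and in the 3′ untranslated region of Tfrc it protects the RNA from decay, so of these genes Tfrc is the one whose RNA level is known to follow this control.

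The hairpins are shown because they divide the genes into 3 classes, those with one before the coding sequence, the one with several after it, and those with none. A search of GENCODE M21 coding transcripts (build GRCm38) looked for the letters CAGTGN as the loop, 5 paired bases on each side with G-T pairs allowed, and a C directly before the stem. The pattern occurs in the 5′ untranslated region of 28 of 21875 genes (0.128%) and in the 3′ untranslated region of 127 genes (0.581%). Capitals mark the unpaired C and the loop, and each sequence is 27 bases long.
Fth1, 5′ element, chr19:9982733-9982759, plus strand: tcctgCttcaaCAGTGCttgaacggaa
Ftl1, 5′ element, chr7:45459780-45459806, minus strand: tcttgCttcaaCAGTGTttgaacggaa
Slc40a1, 5′ element, chr1:45925466-45925492, minus strand: aacttCagctaCAGTGTtagctaagtt
Tfrc, 3′ element, chr16:32631220-32631246, plus strand: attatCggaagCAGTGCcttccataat
Tfrc, 3′ element, chr16:32631711-32631737, plus strand: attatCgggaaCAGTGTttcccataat
Fth1, Ftl1 and Slc40a1 each held 1 match, lying 115, 153 and 207 bases before the coding start. Tfrc held 4, of which the first and the last are printed, and Hmox1, Blvra, Blvrb and Slc11a1 held 0 in either region.

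The libraries differed in depth and in the cells they held. The Hes1 KO libraries had 20563116 to 22131465 counts, against 66167, 5812598 and 12109170 for WT replicates 1, 2 and 3. A single count was worth 15.1 CPM (counts scaled to the library total) in WT replicate 1, and a count of 0 there allows up to 45.3 CPM (3 counts, counting error only), so its values stand apart below. Haemoglobin genes took 39.9% of the counts of WT replicate 3 and at most 0.263% of any other library. The stromal list (10 genes) summed to 0.0037% to 0.00676% in Hes1 KO, against 0.00257% to 0.0068% in WT, and its gene Prrx1, which gives the Cre line its promoter, had 2, 0 and 1 counts in Hes1 KO, against 0, 1 and 0 in WT. The labelled cell type therefore rests on very few transcripts of its defining genes. Hes1 itself was at 8.36, 10.4 and 12.4 CPM in Hes1 KO, against 53.3 and 28.5 CPM in WT replicates 2 and 3, and at 0 counts in WT replicate 1 (log2 fold change without it -2.55, SE 0.31, edgeR adjusted p = 0.0294). Xist and the Y-linked Ddx3y differed within both groups, Xist having 27033, 233 and 20647 counts in Hes1 KO, against 136, 18 and 871 in WT. Ddx3y had 28, 1310 and 3 counts in Hes1 KO, against 0, 1189 and 511 in WT, so without WT replicate 1 both WT libraries but only Hes1 KO replicate 2 held it in quantity. The groups are unbalanced for it there, no term for sex was fitted, and its part in the results was not tested.

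Tests were run by edgeR's quasi-likelihood test over all genes, once with all 6 libraries and once with 5 libraries, without WT replicate 1. With 6 libraries 0 of the 8 iron genes passed an adjusted p of 0.05, as did 0 of all 14756 genes tested (0% called). At an unadjusted p under 0.05 there were 4 of the 8 iron genes and 2200 of all genes, and DESeq2 called 2 of the 8, Hmox1 and Slc11a1, and 813 genes in all. With 5 libraries Hmox1, Blvra and Slc11a1 passed, all higher in Hes1 KO, which is 3 of 8 beside 7.44% of all 16190 genes called higher, and 0 of 8 passed as lower beside 8.09% of all genes. The median log2 fold change of the 8 genes was 0.51 with 6 libraries and 0.29 with 5, beside 0.03 and 0.02 over all genes tested. Every Hes1 KO library lay above every WT library for 4 of the 8 genes with 6 libraries, as for 22.5% of all genes, and below for 1, as for 5.15% of all genes. With 5 libraries it was again 4 above, beside 31.2% of all genes, and 1 below, beside 24.5%. These orders are of measured values on the scale corrected by TMM, edgeR's factor for library composition, and counting error in WT replicate 1 can change those of the 4 higher genes. With 1 Hes1 KO library also left out, which leaves 2 against 2, 0 of all genes passed and so none of the 3 (edgeR adjusted p = 0.108 to 0.132), with log2 fold changes of 3.09 to 3.68 for Hmox1, 1.67 to 1.83 for Blvra and 3.59 to 4.69 for Slc11a1. With library size alone as the scaling 0 of 16190 genes passed (edgeR adjusted p = 0.146 for each of the 3), and their log2 fold changes were 3.87, 2.31 and 4.47 in place of 3.57, 1.83 and 4.41.

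**Figure D1:**
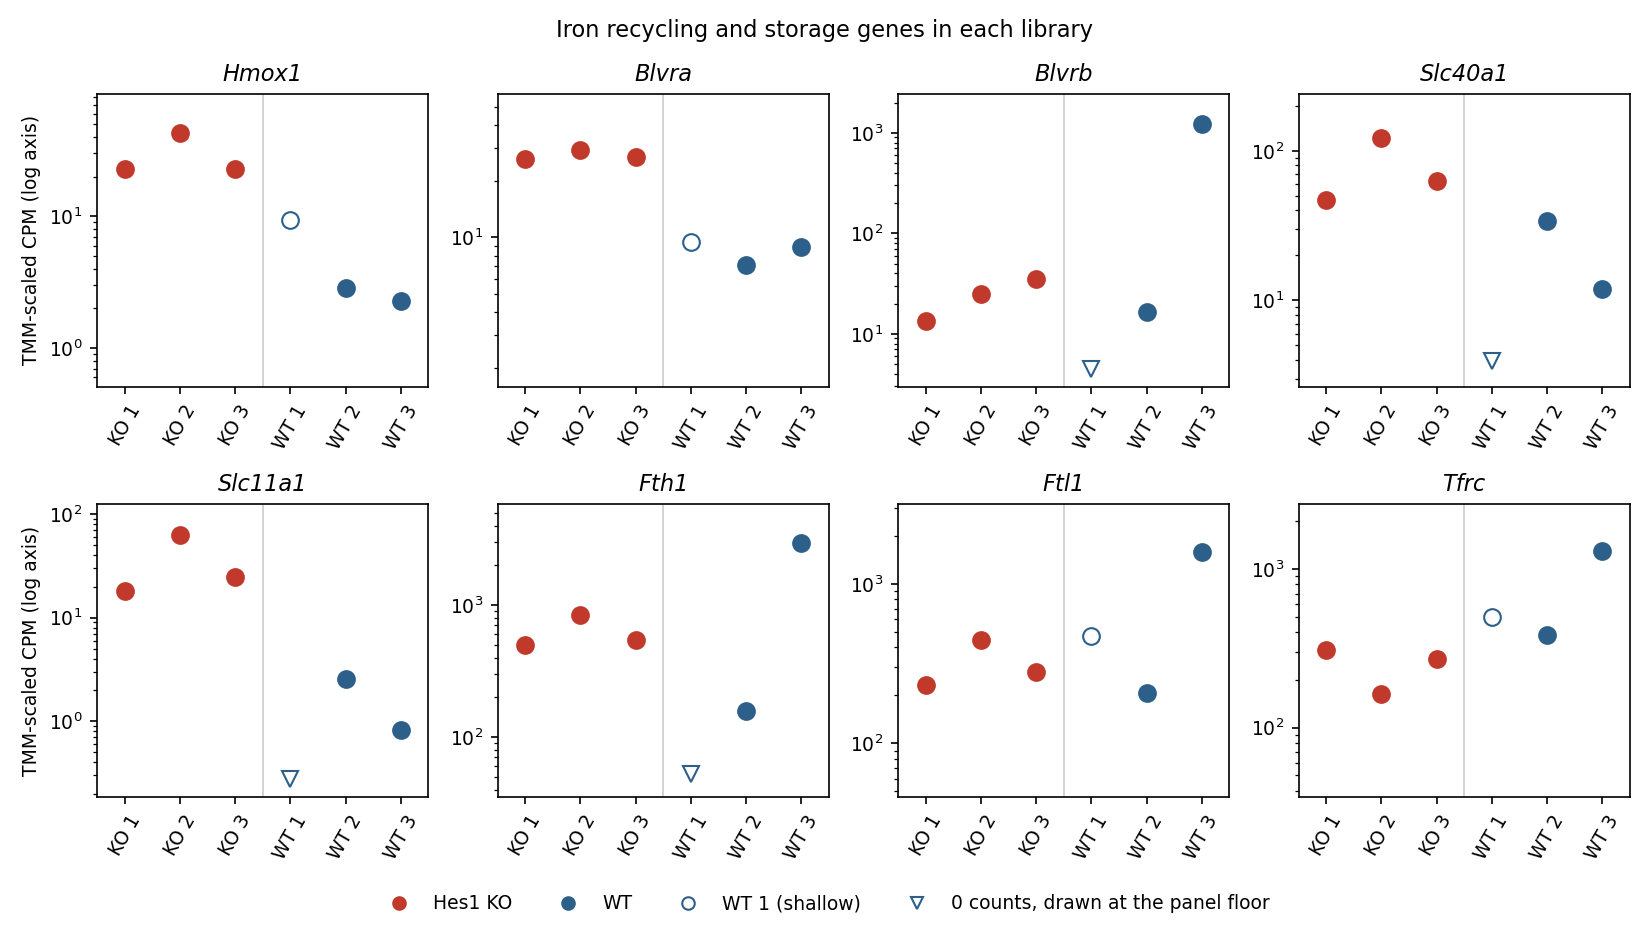
TMM-scaled CPM (log axis) of the 8 iron genes in each library, Hes1 KO in red and WT in blue. Open circles mark the shallow WT replicate 1 and open triangles a count of 0, drawn at the floor of the panel. Hmox1, Blvra, Slc40a1 and Slc11a1 are higher in all 3 Hes1 KO libraries than in WT replicates 2 and 3, Tfrc is lower in all 3, and Blvrb, Fth1 and Ftl1 are highest in WT replicate 3.

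Haem breakdown was first compared at its first step, Hmox1, the stress-inducible haem oxygenase. Hmox1 had 592, 881 and 533 counts in Hes1 KO libraries, against 20 and 11 in WT replicates 2 and 3 and 1 in WT replicate 1. These counts make 26.7, 41.6 and 25.9 CPM in Hes1 KO, against 3.44 and 0.908 CPM in WT replicates 2 and 3, while the 1 count of WT replicate 1 makes 15.1 CPM with a Wilson 95% interval of 2.67 to 85.6 CPM. All 3 Hes1 KO libraries were above WT replicates 2 and 3, Hes1 KO replicate 2 stood highest, and the interval of WT replicate 1 does not separate it from Hes1 KO. Hmox1 rose by a log2 fold change of 3.57 (SE 0.42, 11.8-fold) with 5 libraries (edgeR, Benjamini-Hochberg adjusted p = 0.0294). With 6 libraries its log2 fold change was 3.13 (SE 0.81) and did not pass (edgeR adjusted p = 0.31). Its constitutive relative Hmox2, chosen after its values were seen, had 1558, 1347 and 1355 counts in Hes1 KO, against 215 and 251 in WT replicates 2 and 3, and its log2 fold change of 0.61 (SE 0.28) did not pass with 5 libraries (edgeR adjusted p = 0.155).

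The biliverdin reductases, which take the product of haem oxygenase, differed from each other. Blvra, the main biliverdin reductase of adult tissue, had 687, 607 and 629 counts in Hes1 KO, against 50 and 43 in WT replicates 2 and 3 and 1 in WT replicate 1. Its level was nearly even across Hes1 KO at 31.0, 28.7 and 30.6 CPM (mean 30.1 ± 1.26 SD, n = 3), and it was 8.60 and 3.55 CPM in WT replicates 2 and 3. Blvra was higher in each Hes1 KO library than in WT replicates 2 and 3, the 1 count of WT replicate 1 having the same wide interval as for Hmox1, and it varied least within Hes1 KO of the 8 genes, with a highest level 1.08 times the lowest. It rose by 1.83 (log2, SE 0.24, 3.57-fold) with 5 libraries (edgeR adjusted p = 0.0294), and with 6 libraries it was at 1.73 (SE 0.40) without passing (edgeR adjusted p = 0.31). Blvrb, a flavin reductase abundant in red cells, had 347, 512 and 825 counts in Hes1 KO, against 0, 116 and 5909 in WT replicates 1, 2 and 3. WT replicate 3 at 488 CPM was 24.5 times WT replicate 2 at 20.0 CPM, and WT replicate 2 lay inside the Hes1 KO range of 15.7 to 40.1 CPM. The fitted log2 fold change of Blvrb was -4.62 (SE 1.46, edgeR adjusted p = 0.0792) with 5 libraries, and 0.66 without WT replicate 3, so its sign is set by 1 library. Within Hes1 KO the highest Blvrb, in replicate 3, stood beside the highest erythroid marker sum, 65557 counts, against 2746 and 881 counts in Hes1 KO replicates 1 and 2. Between replicates 1 and 2 the order was the reverse, with Blvrb at 15.7 and 24.2 CPM. The 10 erythroid markers made up 0.00416% to 0.319% of counts in Hes1 KO, against 42.5% in WT replicate 3 and 0.0134% in WT replicate 2, and WT replicate 3 was also the highest library in Fth1, Ftl1 and Tfrc on the TMM scale. All 10 were lower in Hes1 KO with 5 libraries and 0 passed, beside 8.09% of all genes called lower. Their part in the levels of these 4 genes was not tested.

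Slc40a1 encodes ferroportin, the only known iron exporter of mammals and a defining product of red cell-eating macrophages. It had 1229, 2504 and 1489 counts in Hes1 KO, against 236 and 57 in WT replicates 2 and 3 and 0 in WT replicate 1. The levels were 55.5, 118 and 72.4 CPM in Hes1 KO (mean 82.1 ± 32.5 SD, n = 3), against 40.6 and 4.71 CPM in WT replicates 2 and 3. Hes1 KO did not overlap these WT libraries, and WT replicate 2 was closer to the lowest Hes1 KO library than to WT replicate 3 in CPM. The log2 fold change was 1.82 (SE 0.60) with 5 libraries and 2.15 (SE 0.99) with 6, and neither passed (edgeR adjusted p = 0.084 and 0.353). Slc11a1, the divalent metal transporter of phagosomes known as Nramp1, is made by macrophages and neutrophils. Its counts were 475, 1301 and 578 in Hes1 KO, against 18 and 4 in WT replicates 2 and 3 and 0 in WT replicate 1. The levels were 21.5, 61.5 and 28.1 CPM in Hes1 KO, against 3.10 and 0.330 CPM in WT replicates 2 and 3, with no overlap. The 45.3 CPM that a count of 0 allows in WT replicate 1 is above Hes1 KO replicates 1 and 3, so no difference from that library is detectable at its depth. Slc11a1 had the largest increase of the 8 genes, 4.41 (log2, SE 0.82, 21.3-fold) with 5 libraries (edgeR adjusted p = 0.0328), and 49 genes called higher there rose at least as far, Slc11a1 included. With 6 libraries it was at 4.45 (SE 0.89, edgeR adjusted p = 0.31).

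Macrophage, neutrophil and monocyte marker sums were higher in Hes1 KO than in the 2 deeper WT libraries. Of the 10 macrophage markers 7 were tested with 5 libraries, and 4 passed as higher in Hes1 KO (Fcgr1, Adgre1, Aif1 and Cd68), beside 7.44% of all genes. The Fc receptor gene Fcgr1 had 558, 331 and 291 counts in Hes1 KO, against 0, 2 and 1 in WT. Their sum was 0.0481% to 0.0545% of counts in Hes1 KO, against 0.122% (81 counts, with 7 of the 10 genes at 0), 0.0136% (3 at 0) and 0.00168% (0 at 0) in WT replicates 1, 2 and 3. Neutrophil markers summed to 4.29% to 12.4% in Hes1 KO, against 0.676%, 1.25% and 0.0313% in WT, with 1 of 10 passing as higher (Cxcr2), close to the share of all genes. Monocyte markers summed to 0.395% to 0.493% in Hes1 KO, against 1.26%, 0.113% and 0.00944% in WT, with 2 of 5 passing (Ccr2 and Ms4a6c). WT replicate 1 was above every Hes1 KO library in macrophage and monocyte markers. It held 1 count of Hmox1 and 0 of Slc40a1 and Slc11a1, but at its depth these counts do not show that the genes were low. The Wilson interval of 1 count there reaches 85.6 CPM, above Hmox1 in every Hes1 KO library. A count of 0 there allows 45.3 CPM, above Slc11a1 in Hes1 KO replicates 1 and 3. Slc40a1 was above 45.3 CPM in every Hes1 KO library, but 0 counts in WT replicate 1 set no firm upper bound. Hes1 KO replicate 2, highest in Hmox1, Slc40a1 and Slc11a1, also had the highest neutrophil sum (2623593 counts, against 949914 and 1097578 in Hes1 KO replicates 1 and 3). Csf1r, the receptor for macrophage growth factor, was at 290 to 335 CPM in Hes1 KO, against 937, 99.1 and 5.29 CPM in WT replicates 1, 2 and 3. The lysosomal Cd68 was at 103 to 126 CPM in Hes1 KO, against 272, 22.2 and 8.26 CPM in WT. The complement genes C1qa, C1qb and C1qc had 5 to 14 counts in any Hes1 KO library, against 0 to 5 in any WT library. In CPM C1qb was at 0.292 to 0.407 in Hes1 KO, against 0.330 in WT replicate 3. C1qc was at 0.226 to 0.535 CPM in Hes1 KO, against 0.413 CPM there, so both overlapped in CPM. The TMM factor of WT replicate 3 with 5 libraries was 0.445, against 1.05 to 1.26 in Hes1 KO. On the TMM scale WT replicate 3 therefore stands higher relative to Hes1 KO. C1qa did not overlap WT replicates 2 and 3, at 0.316 to 0.661 CPM in Hes1 KO, against 0.172 and 0.0826 CPM. Of 7 genes known from iron-recycling macrophages of spleen and marrow, 5 were tested and 2 passed as higher. These were Axl, a receptor for dying cells, with 216, 206 and 173 counts in Hes1 KO, against 1, 11 and 11 in WT, and the lectin gene Siglec1, with 73, 85 and 70 in Hes1 KO, against 0, 0 and 1 in WT. The list summed to 1471, 749 and 1286 counts in Hes1 KO, against 3, 271 and 38 in WT. In CPM the sums were 66.5, 35.4 and 62.5 in Hes1 KO, against 45.3, 46.6 and 3.14 in WT, so the groups overlapped. The adhesion gene Vcam1 gave 951, 367 and 875 of these counts in Hes1 KO, against 0, 226 and 8 in WT. It was at 43.0, 17.3 and 42.6 CPM in Hes1 KO, against 38.9 and 0.661 CPM in WT replicates 2 and 3. The defining factor of the list, Spic, had 2, 10 and 8 counts in Hes1 KO, against 0, 0 and 1 in WT. Timd4 had 2, 0 and 1 in Hes1 KO, against 0 in each WT library. In bulk RNA more cells of a type and more RNA per cell cannot be told apart.

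Levels were therefore also given per macrophage marker transcript, a scale chosen after the values were seen, which rests on 9881 to 12017 marker counts per library in Hes1 KO but 793 and 203 in WT replicates 2 and 3 and 81 in WT replicate 1. Csf1r, which is in the monocyte list too, gave 7407, 6528 and 5956 of these counts in Hes1 KO. It gave 62, 576 and 64 in WT replicates 1, 2 and 3, so the scale does not stand for macrophages alone. Per 1000 macrophage marker counts, Hmox1 had 49.3, 76.3 and 53.9 counts in Hes1 KO, against 12.3, 25.2 and 54.2 in WT replicates 1, 2 and 3, so the groups overlapped. Blvra had 57.2, 52.6 and 63.7 in Hes1 KO, against 12.3, 63.1 and 212 in WT replicates 1, 2 and 3, and Slc40a1 had 102, 217 and 151 in Hes1 KO, against 0, 298 and 281 in those WT libraries. On this scale Slc40a1 was lower in every Hes1 KO library than in WT replicates 2 and 3, opposite to its CPM, while WT replicate 1 had 0 counts of it. In measured values Slc11a1 kept the groups apart on it, with 39.5, 113 and 58.5 in Hes1 KO, against 0, 22.7 and 19.7 in WT replicates 1, 2 and 3. Those WT values rest on 0, 18 and 4 counts of Slc11a1. Counting error was not set on this scale, so the separation is not resolved. Neutrophils make Slc11a1 too, and this scale leaves their markers out. Those summed to 4.29% to 12.4% of counts in Hes1 KO, against 1.25% and 0.0313% in WT replicates 2 and 3. The part of the marker shifts in the differences of these genes was not tested.

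**Figure D2:**
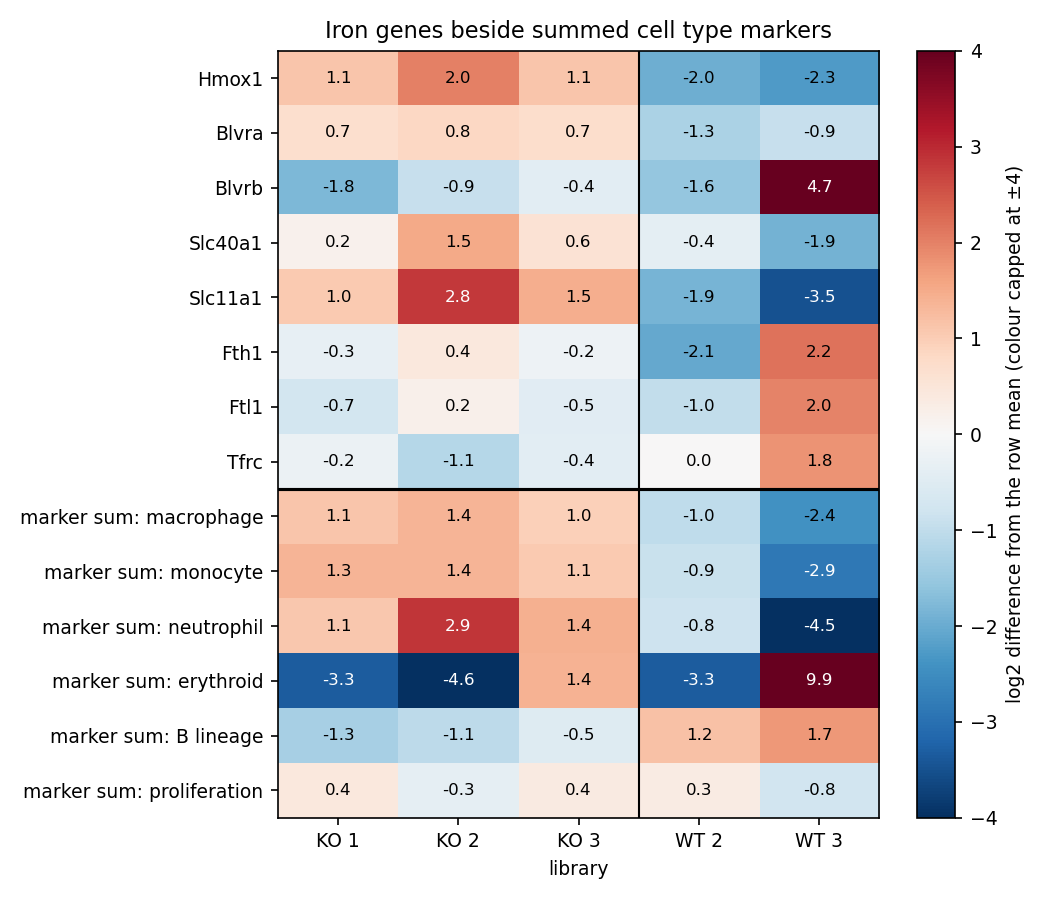
Log2 level of each iron gene (above the line) and of summed cell type markers (below it) in 5 libraries, TMM-scaled and given as the difference from the row mean, without WT replicate 1. Hmox1, Blvra, Slc40a1 and Slc11a1 are, like the myeloid sums, above their means in every Hes1 KO library and below them in WT replicates 2 and 3. In Hes1 KO they stand 1.1 to 2.0, 0.7 to 0.8, 0.2 to 1.5 and 1.0 to 2.8 above. Blvrb, Fth1, Ftl1 and Tfrc stand 1.8 to 4.7 above theirs in WT replicate 3, where the erythroid sum is 9.9 above.

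The ferritin subunits Fth1, which oxidises incoming iron, and Ftl1, which favours its mineral core, carry the 5′ hairpins shown above. Fth1 had 12918, 17427 and 12760 counts in Hes1 KO, against 0, 1100 and 14056 in WT replicates 1, 2 and 3. In CPM it was at 584, 823 and 621 in Hes1 KO, between 189 in WT replicate 2 and 1161 in WT replicate 3. Ftl1 had 6066, 9154 and 6616 counts in Hes1 KO, against 1447, 7636 and 50 in WT replicates 2, 3 and 1, or 274, 432 and 322 CPM in Hes1 KO, against 249, 631 and 756 CPM in those WT libraries. The Hes1 KO libraries lay within the WT range for both genes. Neither passed in either fit, with log2 fold changes of -1.24 (SE 1.04) for Fth1 and -1.44 (SE 0.80) for Ftl1 with 5 libraries (edgeR adjusted p = 0.406 and 0.23). Without WT replicate 3 both had the opposite sign with 5 libraries, 2.11 for Fth1, which then passed (edgeR adjusted p = 0.0186, with WT replicate 2 alone as WT), and 0.74 for Ftl1. Mouse ferritin genes have processed pseudogenes that can share reads, so these counts are uncertain. The pseudogene row Ftl1-ps2 had 75, 104 and 66 counts in Hes1 KO, against 0, 3 and 104 in WT. Ftl1 exons also overlap the opposite-strand model Gm10252 by up to 355 bases (GENCODE M21), and the labels do not state whether the counting used strand.

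The ratio of the ferritin subunits within a library does not depend on scaling between libraries. There were 2.13, 1.90 and 1.93 Fth1 counts per Ftl1 count in Hes1 KO, against 0.760 and 1.84 in WT replicates 2 and 3. WT replicate 1 had 0 Fth1 counts beside 50 of Ftl1. At its lowest share in the other 5 libraries Fth1 would give 12.5 counts in WT replicate 1, and of 197 genes with at least 10 such counts 19 (9.64%) had 0 there, so other abundant genes were missing from that library too. On the log2 scale, with 0.5 added to each count, the ratio averaged 0.99 ± 0.09 in Hes1 KO, against -2.06 ± 4.03 in WT (SD, n = 3 each, exact two-sided permutation test, p = 0.1, Benjamini-Hochberg adjusted over 3 ratios 0.15). A p of 0.1 is the smallest that 3 libraries against 3 allow. All 3 Hes1 KO libraries were above every WT library; the closest was WT replicate 3, at 0.88 beside 0.93 in Hes1 KO replicate 2. Without WT replicate 1 the difference was 0.75, against 3.05 with it.

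Tfrc, the transferrin receptor and the gene with the 3′ hairpins, was the 1 gene of the 8 that was lower in every Hes1 KO library than in every WT library. It had 8029, 3378 and 6368 counts in Hes1 KO, or 363, 160 and 310 CPM. WT replicates 2 and 3 had 2665 and 6207 counts, or 458 and 513 CPM, and WT replicate 1 had 53 counts, or 801 CPM (Wilson 95% interval 612 to 1047). The order held on the TMM scale, at 309, 164 and 271 in Hes1 KO, against 501, 382 and 1291 in WT, and with haemoglobin genes left out of the library total. The log2 fold change was -1.55 (SE 0.60) with 6 libraries and -1.70 (SE 0.57) with 5, and neither passed (edgeR adjusted p = 0.317 and 0.0885). Its size depended on single WT libraries, being -0.81 with 6 libraries and -0.52 with 5 when WT replicate 3 was left out, and -2.00 and -2.32 when WT replicate 2 was, the last of which passed (edgeR adjusted p = 0.0103). Tfrc is also known to be high in dividing cells, and Hes1 KO replicate 2, lowest in Tfrc, was lowest of the Hes1 KO libraries in the proliferation gene Mki67 at 489 CPM, against 1302 and 1152 CPM in Hes1 KO replicates 1 and 3. Mki67 was at 1964 CPM in WT replicate 2 and 305 CPM in WT replicate 3. Of the 7 proliferation markers Mki67 alone was lower in Hes1 KO with 5 libraries, at -0.40 (log2), and the other 6 were higher, of which Ccnb2 (1.09) and Mcm5 (1.19) passed, beside 7.44% of all genes called higher. B lineage markers summed to 0.0776% to 0.135% of counts in Hes1 KO, against 0.482% and 0.23% in WT replicates 2 and 3 and 0.0181% in WT replicate 1. All 7 of them were lower in Hes1 KO with 5 libraries and 2 passed, Ebf1 (-3.51) and Pax5 (-2.22), beside 8.09% of all genes called lower. The part of dividing or B lineage cells in the Tfrc levels was not tested.

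Import was then set against export within a library. There were 6.53, 1.35 and 4.28 Tfrc counts per Slc40a1 count in Hes1 KO, against 11.3 in WT replicate 2 and 109 in WT replicate 3, while WT replicate 1 had 53 Tfrc counts and 0 of Slc40a1. On the log2 scale the ratio averaged 1.75 ± 1.18 in Hes1 KO, against 5.66 ± 1.88 in WT (SD, n = 3 each, exact two-sided permutation test, p = 0.1, adjusted over 3 ratios 0.15), and all 3 Hes1 KO libraries were below all 3 WT libraries. The difference of -3.92 was -3.38 without WT replicate 1 and -3.37 without WT replicate 3. The ratio of Blvra to Blvrb overlapped between groups, at 1.98, 1.19 and 0.762 in Hes1 KO, against 0.431 and 0.00728 in WT replicates 2 and 3, with WT replicate 1 at 1 count of Blvra and 0 of Blvrb (exact two-sided permutation test, p = 0.5, adjusted over 3 ratios 0.5).

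**Figure D3:**
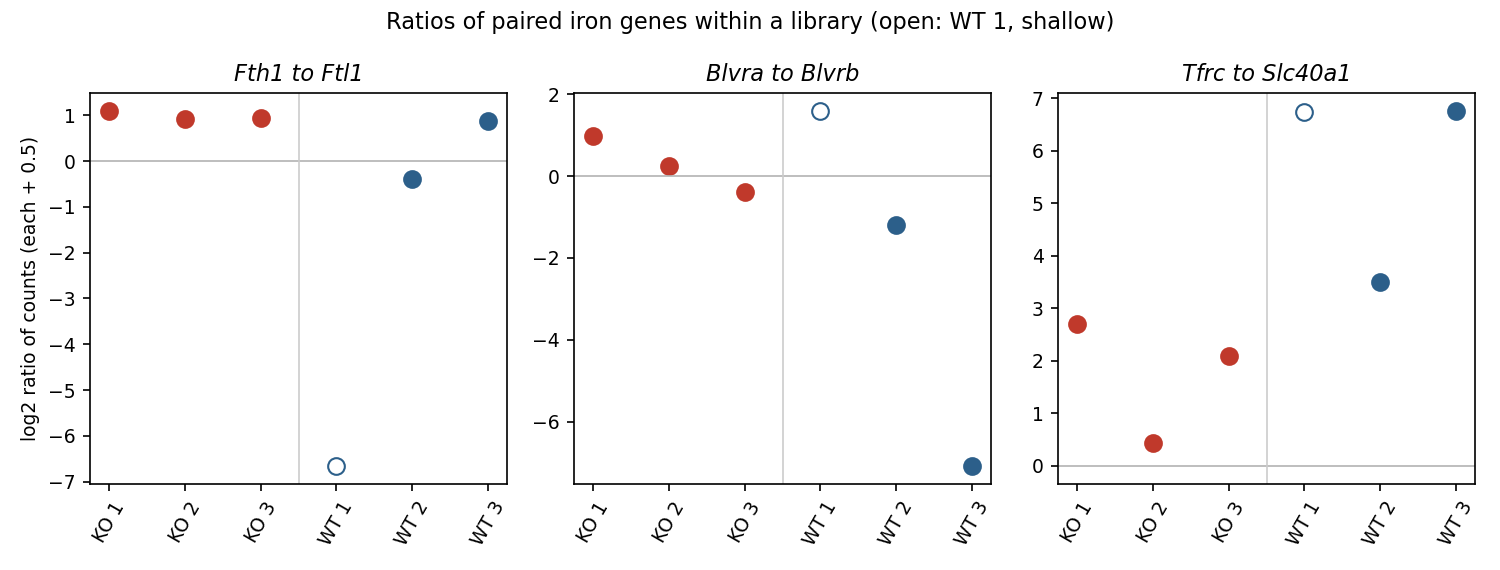
Log2 ratio of counts within each library for Fth1 to Ftl1, Blvra to Blvrb and Tfrc to Slc40a1, with 0.5 added to each count, Hes1 KO in red and WT in blue (open, the shallow WT replicate 1). Fth1 to Ftl1 lies at 0.93 to 1.09 in Hes1 KO and 0.88 in WT replicate 3, and Tfrc to Slc40a1 lies at 0.43 to 2.71 in Hes1 KO, below 3.49 to 6.75 in WT.

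The makeup of the iron transcripts also varied between libraries. The 8 genes summed to 0.137% to 0.169% of counts in Hes1 KO, against 0.159%, 0.0972% and 0.28% in WT replicates 1, 2 and 3. Ferritin made up 62.6% to 74.3% of these counts in Hes1 KO, as it did in WT replicate 3 (63.9%), against 47.6% and 45.1% in WT replicates 1 and 2. Tfrc made up 9.45% to 26.5% in Hes1 KO and 18.3% in WT replicate 3, against 50.5% and 47.2% in WT replicates 1 and 2. In the ferritin and Tfrc shares WT replicate 3 lay within or close to the Hes1 KO range and the other WT libraries outside it. In the sum of the 8 genes WT replicate 3 was above the Hes1 KO range and WT replicate 1 lay inside it.

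**Figure D4:**
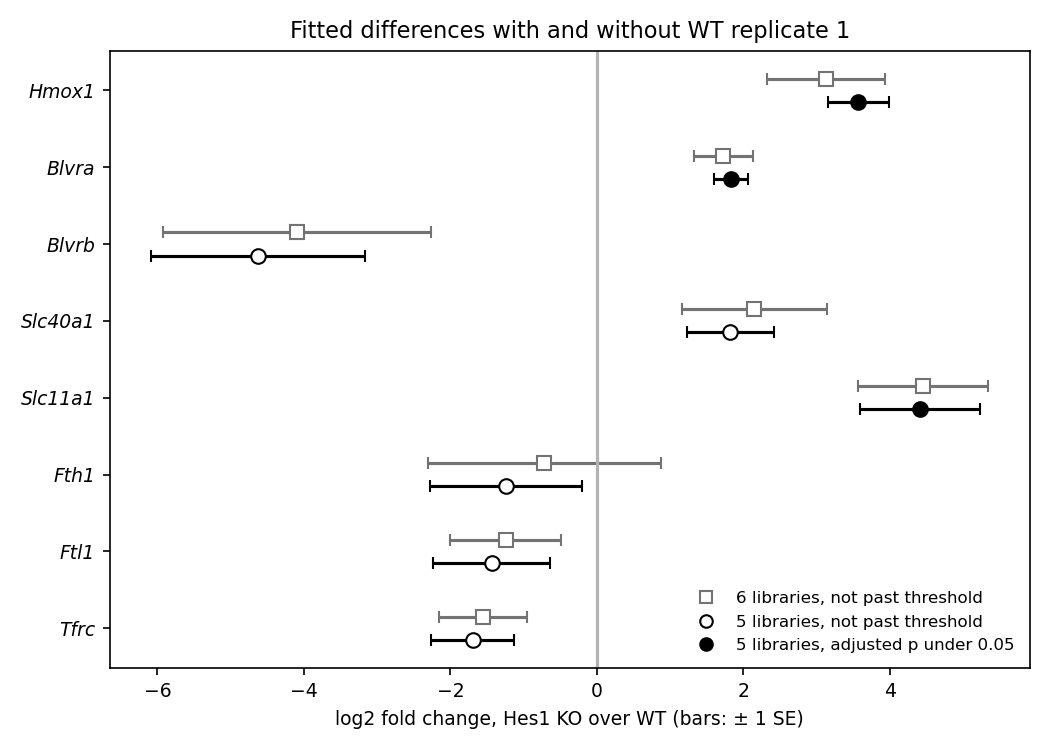
Fitted log2 fold changes of Hes1 KO over WT for the 8 iron genes, with all 6 libraries (squares) and without WT replicate 1 (circles), bars showing 1 approximate SE to each side. Filled symbols passed an adjusted p of 0.05, which Hmox1, Blvra and Slc11a1 did with 5 libraries and no gene did with 6.

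The likest genes were sought over the 5 deeper libraries as those with the smallest root mean square difference of centred log2 CPM among 9083 named genes with a mean log2 CPM of at least 3. Slc40a1 ran closest with Arrb2 (0.06) and Ano10 (0.10), and Blvra with Mis18a (0.08) and Grn (0.09). Fth1 ran closest with Mpc2 (0.11) and Cript (0.13), Ftl1 with Shld1 (0.12) and Mxi1 (0.13), and Tfrc with Diaph3 (0.13) and Ift140 (0.14). Hmox1 ran closest with Apobr (0.19) and Krt80 (0.20), and Slc11a1 with S100a6 (0.23) and Lst1 (0.30). Blvrb had the nearest neighbours Dhrs11 (0.21) and Asb1 (0.32), with 361 to 647 and 410 to 856 counts in Hes1 KO, against 6612 and 6411 in WT replicate 3. Among the 8 genes the closest pair was Fth1 and Ftl1 (0.55), then Hmox1 and Slc11a1 (0.63), and the pair farthest apart was Blvrb and Slc11a1 (4.21).

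Other genes of iron handling were compared in 4 lists that did not include the 8. Of 13 tested genes of iron uptake and transport, 2 rose and 2 fell with 5 libraries, beside 7.44% and 8.09% of all genes (median log2 fold change 0.12, against 0.02 over all genes). Hfe, a regulator of hepcidin that binds the transferrin receptor, rose by 1.56 (log2, SE 0.31) with 244, 266 and 223 counts in Hes1 KO, against 29 and 16 in WT replicates 2 and 3. The iron chaperone Pcbp1 rose by 0.98 (log2, SE 0.22). Slc11a2, the endosomal relative of Slc11a1 that takes transferrin-borne iron into the cytosol, fell by 1.44 on the log2 scale (SE 0.29), though its levels of 22.1, 14.2 and 27.1 CPM in Hes1 KO overlapped 52.6 and 25.3 CPM in WT replicates 2 and 3. The metalloreductase Steap4 fell by 2.51 on the log2 scale (SE 0.51). The adjusted p of these 4 genes were 0.036, 0.0441, 0.0366 and 0.0369 (edgeR, 5 libraries), and none passed with 6. Slc11a1 rose and Slc11a2 fell with 5 libraries. Slc25a37, the mitochondrial iron importer mitoferrin of red cell precursors, was chosen after its values were seen. It had 1368 to 3787 counts in Hes1 KO, against 693 in WT replicate 2 and 37793 in WT replicate 3. In CPM these were 71.0, 64.6 and 184 in Hes1 KO, against 119 and 3121 in those WT libraries.

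Of 7 tested genes of iron regulation and ferritin turnover, 0 passed with 5 libraries, beside 15.5% of all genes called in either direction. With so few genes 0 calls is no result about the list. The median log2 fold change was 0.00. Ncoa4, the receptor that brings ferritin to the lysosome, had 738, 638 and 657 counts in Hes1 KO, against 265 and 1863 in WT replicates 2 and 3. These counts make 33.3, 30.1 and 32.0 CPM in Hes1 KO, below 45.6 and 154 CPM in those WT libraries. The log2 fold change of Ncoa4 was -2.82 (SE 0.83, edgeR adjusted p = 0.0693, 5 libraries). Aco1, an iron regulatory protein, was at 0.55 (SE 0.22, edgeR adjusted p = 0.123) and the other, Ireb2, chosen after its values were seen, at -0.31 (SE 0.23, edgeR adjusted p = 0.362). Of 8 tested genes of haem and haemoglobin uptake and export, 1 rose and 0 fell, beside 7.44% and 8.09% of all genes (median 0.70), so 1 call is no result about the list. It was Lrp1, a receptor that clears haem bound to haemopexin, with 3717, 3827 and 2702 counts in Hes1 KO, against 333 and 78 in WT replicates 2 and 3 (log2 fold change 2.27, SE 0.51, edgeR adjusted p = 0.0427). Cd163, the haemoglobin scavenger receptor, was also chosen after its values were seen. It had 224, 70 and 148 counts in Hes1 KO, against 34 and 14 in WT replicates 2 and 3. In CPM the groups overlapped, at 10.1, 3.31 and 7.20 in Hes1 KO, against 5.85 and 1.16 in those WT libraries. Cd163 did not pass (edgeR adjusted p = 0.322). Slc48a1, the haem transporter of the phagolysosome, chosen after its values were seen, had 1621 to 1904 counts in Hes1 KO, against 303 in WT replicate 2 and 10481 in WT replicate 3.

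Nfe2l2 activates and Bach1 represses Hmox1 and the ferritin genes through antioxidant response elements. Of 15 tested genes of this axis, 1 rose and 0 fell with 5 libraries (median 0.11), close to the 7.44% of all genes called higher. The gene that rose was the peroxiredoxin Prdx1, by 1.33 (log2, SE 0.21, edgeR adjusted p = 0.0302), with 3869, 3471 and 3109 counts in Hes1 KO, against 443 and 293 in WT replicates 2 and 3. With 6 libraries 0 genes of the 4 lists passed, as 0 of all genes did. Nfe2l2 itself was at 0.79 (SE 0.23, edgeR adjusted p = 0.0687) and Bach1 at -0.25 (SE 0.27, edgeR adjusted p = 0.52), both named after their values were seen.

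Promoters were read where sequence was at hand, for 6 of the 8 genes and 9 start sites in RefSeq (GRCm38.p6), over the 250 bases before each start and on both strands. Hmox1 and Slc40a1 had no entry. The letters CACNAG (N box) and CACGNG (class C site), both known to be bound by Hes proteins, occur in 36.7% and 23.5% of all 32851 windows, CACGTG in 6.02%, and TGACNNNGC (antioxidant response element) in 10.2%. CACGTG also counts as a class C site, and CACGAG fits both CACNAG and CACGNG on the same strand. The Blvra window held 1 class C match, 59 bases before the start, and the 1 antioxidant response match among the 9 windows, 49 bases before it. It is shown because Blvra was the most even of the 3 genes called higher and held both kinds of match, which are in capitals.
Blvra, chr2:127070407-127070656, plus strand: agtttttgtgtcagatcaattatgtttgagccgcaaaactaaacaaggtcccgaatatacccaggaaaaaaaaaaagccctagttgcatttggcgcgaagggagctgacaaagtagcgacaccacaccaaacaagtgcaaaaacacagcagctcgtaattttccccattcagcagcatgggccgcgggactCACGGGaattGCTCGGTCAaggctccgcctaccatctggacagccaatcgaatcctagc
The Slc11a1 window, before the gene with the largest increase, held 0 matches of any of the 4, and so did both Fth1 windows. These matches describe letters only.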

How the data were processed

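Per the labels' protocols, total RNA came from Qiagen RNeasy columns, and a stranded kit for messenger RNA made the libraries. The authors deposited whole-number read counts per gene symbol, counted with featureCounts per the name of the table, and the submitters' processing notes name the build GRCm39, edgeR and limma. Aligner, annotation and strand setting are unstated there. The 6 columns were matched to samples by their titles. Counts were tested with edgeR 4.0.16 (R 4.3.3) after filterByExpr and TMM scaling, by glmQLFTest with the legacy option off and Benjamini-Hochberg adjustment over all genes tested at 0.05. Standard errors are approximate, the fold change divided by the root of its F statistic. CPM values use library totals without TMM factors unless said. DESeq2 1.42.0, limma 3.58.1, other scalings and filters, the replicate block and each left-out library were alternatives. Scripts were tested on simulated data. Ratios used an exact permutation test. Intervals cover counting error only. Named genes were the 8 members, Hes1, up to 4 passing (otherwise 2) members of each pathway list, the 2 most abundant markers of a list and the 2 likest genes, and other markers (those that passed and those near 0) were named after their values were seen. The members and lists were chosen with earlier results of these data known. Annotation came from GENCODE M21 and RefSeq on GRCm38, another build than the counts, and served for sequences and overlaps only.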

Additional observations from a re-analysis of the deposited data

How the results depend on the processing

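With 6 libraries 0 genes and 0 iron genes were called, except by DESeq2 (813 genes, 2 iron genes) and when 1 library was left out (0 to 2513 genes, 0 to 3 iron genes, the highest without WT replicate 1). With 5 libraries 2513 genes and 3 iron genes were called. Calls were 0 for both with library size alone, library size without haemoglobin genes, limma-voom with quality weights, the replicate block and a threshold of 0.01. DESeq2 called 4997 genes and 6 iron genes (Slc40a1 higher and Blvrb and Tfrc lower besides the 3), and limma-voom 1440 genes and 2 iron genes. Leaving out a further library gave 0 to 6209 genes and 0 to 8 iron genes, with 0 without any 1 of the Hes1 KO libraries, 8 without WT replicate 2 and 4 without WT replicate 3. A fit with WT replicate 2 or 3 alone assumes that it varies like the Hes1 KO libraries. With 5 libraries the median change (log2) over the whole table was -0.19 with upper quartile scaling and 0.44 with library size alone, and upper quartile scaling gave 803 calls higher and 1790 lower, in place of 1204 and 1309. Hmox1, Blvra, Slc40a1 and Slc11a1 stayed higher and Tfrc lower in Hes1 KO under every alternative run, though Tfrc varied in size. Fth1 turned positive with library size alone (0.57 with 6 libraries, 0.0016 with 5), limma-voom (1.30 with 6), quality weights (0.88 with 6), the replicate block (2.17 with 6, 0.054 with 5) and without WT replicate 3. With 1 library left out, Fth1 ranged over -1.38 to 2.82 (6 libraries) and -2.16 to 2.11 (5), Blvrb over -4.83 to 0.94 (6) and -5.60 to 0.66 (5), Ftl1 over -2.26 to 0.74 (5) and Tfrc over -2.00 to -0.81 (6) and -2.32 to -0.52 (5), each highest without WT replicate 3. The cause was not tested. Correlations of same-numbered deviations were 0.15, 0.007 and 0.24. Hes1 KO replicates 1 and 3 correlated best with the WT library of their number, and Hes1 KO replicate 2 with WT replicate 1 (0.02). With 1 pair of libraries per number these values cannot decide whether the numbers pair the samples. The block is therefore no test of a pairing. The ratio differences kept their sign, at 0.75 to 4.52 for Fth1 to Ftl1, 0.09 to 4.43 for Blvra to Blvrb and -5.00 to -3.26 for Tfrc to Slc40a1 with 1 library left out. The 45.3 CPM that a count of 0 allows in WT replicate 1 covers counting error only. At their lowest share in the other 5 libraries 197 genes would give at least 10 counts there, and 19 had 0. Its 0 counts therefore set no firm upper bound on a level.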
